A study of Mus musculus with 6 samples.

Results

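The genes described here are 31 genes of fatty acid oxidation and lipolysis in mouse bone marrow-derived macrophages (Mφs). They were chosen by name from general knowledge of these pathways, with earlier results of these data known. Each was read from the deposited table by gene symbol. All 31 were found among its 41549 genes, none was split over several rows, and all 31 passed the filter on low counts that left 11933 genes for testing. The members comprise 4 genes of the carnitine shuttle, 5 acyl-CoA dehydrogenases, 5 enzymes of the mitochondrial β-oxidation cycle, 3 auxiliary enzymes for unsaturated fatty acids, 3 genes of electron transfer, 5 peroxisomal genes, 1 acyl-CoA thioesterase and 5 genes of lipolysis.

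Mφs were grown from the bone marrow of adult wild-type C57Bl/6 N mice with macrophage colony-stimulating factor. While still naïve (M0), they were transfected with a locked nucleic acid antisense oligonucleotide, and were then exposed to IL-4 and IL-13, which polarise Mφs into the anti-inflammatory M2 type. In 3 libraries (αGlu) the oligonucleotide was directed against 5′tRF-Glu(CTC), a fragment cut from the 5′ part of tRNA-Glu, and in the other 3 (Ctr) it was a control oligonucleotide, so that both groups shared the transfection, the cytokines and the genotype. The cells were differentiated in culture, and whether the marrow of several mice was pooled was not given in the sources used here. The fragment itself is no mRNA and was not measured in these libraries.

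The antisense and its target are shown because they are the only difference in treatment between the groups, and capitals mark the 20 bases of the 21-base target that pair with the antisense. Both are written 5′ to 3′ as in the oligonucleotide list of the study.
antisense: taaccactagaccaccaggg
target: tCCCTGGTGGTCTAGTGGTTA

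Cells free fatty acids from stored or circulating triglycerides with lipases, activate them to acyl-CoA esters, and carry long chains into mitochondria bound to carnitine. Each turn of β-oxidation there removes an acetyl unit through a dehydrogenation, a hydration, another dehydrogenation and a thiolytic cleavage, and the electrons pass through the electron transfer flavoprotein to the respiratory chain, while peroxisomes shorten very long and branched chains. Mφs polarised with IL-4 are known for taking up triglyceride-rich particles and for oxidising fatty acids.

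Total counts were between 17912831 and 30386653 per library. The members took 0.611%, 0.556% and 0.555% of the reads in Ctr 1, 2 and 3, and 0.380%, 0.159% and 0.162% in αGlu 1, 2 and 3. The libraries of the αGlu group were unlike each other. Across the genes tested, log2 CPM (counts scaled to the library size) correlated at a Pearson r of 0.992 between αGlu 2 and 3, at 0.929 between αGlu 1 and either of them, and at 0.966 to 0.982 between αGlu 1 and the Ctr libraries, all across genes, which are not independent replicates. Results are therefore given with and without αGlu 1. As αGlu 1 is set aside for its own values, standard errors and p-values without it reflect only the libraries kept. They are too small as measures of the spread among αGlu cultures, and are given as descriptions. All 10 macrophage markers examined were above 1 CPM on average, with Adgre1 between 822 and 1595 CPM. Their summed level was 12234 to 13756 CPM in Ctr and 13058 to 19551 CPM in αGlu, with Lyz2 the largest part. The list was not uniform. Cd68 was 1237 and 1144 CPM in αGlu 2 and 3 against 1809 to 2063 CPM in Ctr. Mertk was also below Ctr in these libraries, while the other macrophage markers were above it. Of 8 adipocyte markers 0 were above 1 CPM on average and 4, including Cidec and Lep, were at 0 in every library, with summed levels of 1.16 to 1.77 CPM in Ctr and 0.0630 to 0.574 CPM in αGlu.

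The lists of other cell types were near 0 with 1 exception. Fibroblast and stromal, dendritic cell, lymphocyte, mast cell and basophil, and erythroid markers (0 of 8, 0 of 7, 0 of 8, 0 of 7 and 0 of 6 above 1 CPM) summed to at most 8.36 CPM in any library. The neutrophil list (3 of 10 above 1 CPM, Ly6g and Retnlg at 0) summed to 107 to 160 CPM in Ctr and to 186, 539 and 609 CPM in αGlu 1, 2 and 3, almost all of it from Csf3r. Markers of the response to IL-4 and IL-13 (9 of 10 above 1 CPM) summed to 2852 to 4569 CPM in Ctr and 4087 to 5655 CPM in αGlu. Within that list Mrc1 was 1513 and 2379 CPM in αGlu 2 and 3 against 771 to 948 CPM in Ctr, whereas Retnla was 0.0315 and 0.0367 CPM there against 245 to 540 CPM in Ctr. The part of the Csf3r, macrophage marker and response marker differences in the values below was not tested.

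The comparison of αGlu with Ctr asked how transcripts of M2 Mφs differ when the fragment is blocked. Fewer cells with a transcript and less of it per cell cannot be told apart in these bulk libraries. A gene counted as called when its adjusted p was under 0.1 and its log2 fold change beyond 1 in either direction. By the quasi-likelihood test of edgeR, with p-values adjusted after Benjamini and Hochberg over all genes, 0 of the 31 members and 0 of 11933 genes (0%) were called. Adjusted p-values of the members lay between 0.154 and 0.710. At an unadjusted p under 0.05, the quasi-likelihood test had 20 of 31 members, 3 higher and 17 lower in αGlu, against 24.7% of all genes tested. DESeq2 called 1 member, Acot2, which was lower, against 4.21% of genes higher and 3.92% lower among its tested genes. P-values here measure only the spread between libraries, which the study describes as 3 independent experiments.

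Most members were lower in αGlu, which describes a list chosen with earlier results of these data known. Of the 31 members, 23 had a negative and 8 a positive log2 fold change, and the median was -0.39 against 0.02 over all genes tested. The 3 αGlu libraries all lay below the 3 Ctr libraries for 19 members, where 15.9% of all genes did so, and all above for 3 members (Acadsb, Eci1 and Lipe), where 14.2% of all genes did so. In 18 of the 19, αGlu 1 was the αGlu library nearest to Ctr, and it lay within the Ctr range for 6 of all 31 members. As medians over the members, log2 CPM deviated from the Ctr mean by 0.07, -0.04 and -0.01 in Ctr 1, 2 and 3 and by -0.19, -0.52 and -0.50 in αGlu 1, 2 and 3.

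**Figure D1:**
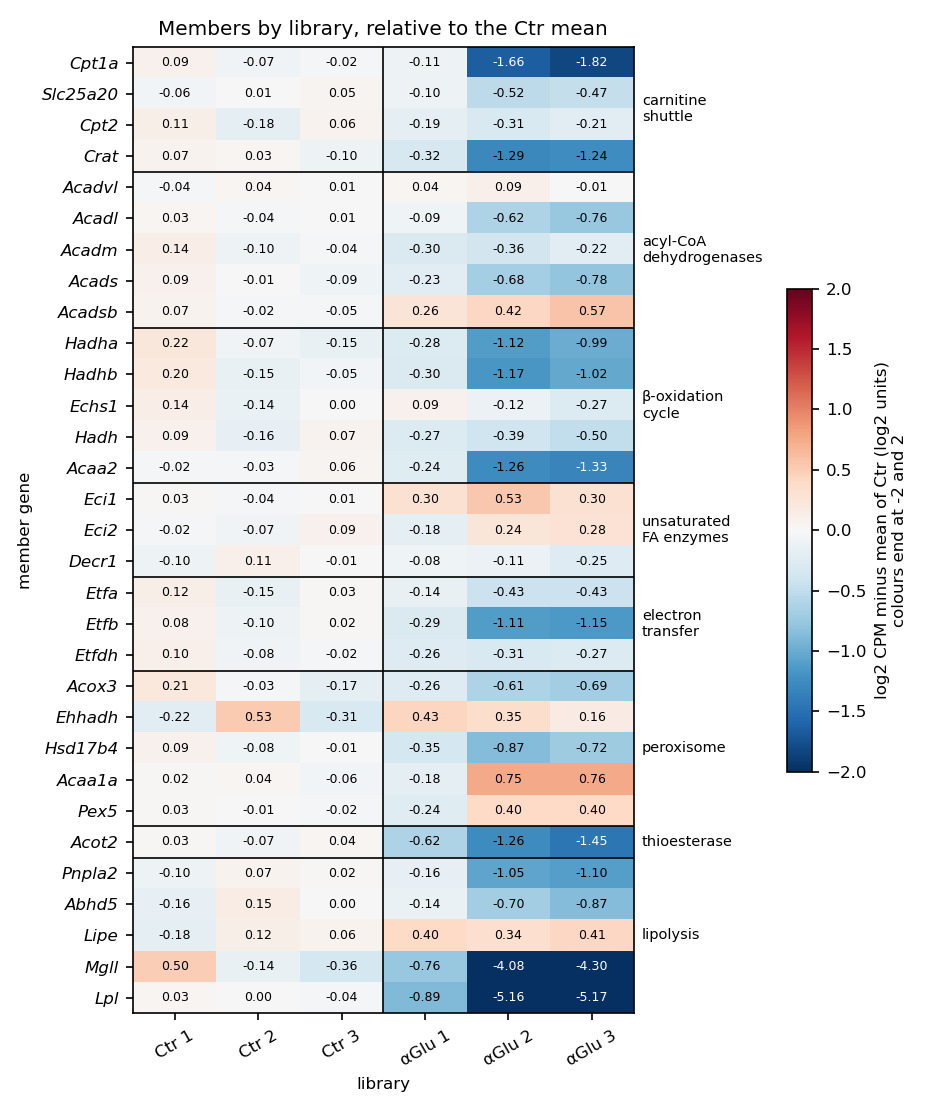
Heat map of log2 CPM minus the mean of the 3 Ctr libraries for each of the 31 members (rows, grouped by role) in each library (columns), with the value printed in each cell and colours ending at -2 and 2. Blue cells, meaning lower than Ctr, fill the αGlu 2 and αGlu 3 columns for most members, reach -5.17 for Lpl, and are pale in αGlu 1.

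Without αGlu 1, the quasi-likelihood test called 10 members, all lower (Cpt1a, Crat, Hadha, Hadhb, Acaa2, Etfb, Acot2, Pnpla2, Mgll and Lpl), and 0 higher. Over all genes tested without this library, 10.5% were called lower and 8.05% higher. At the same adjusted p with no fold limit, 26 of 31 members passed without αGlu 1, 20 of them lower and 6 higher. The share of all genes that passed this looser rule was not counted. The shares given above belong to the rule with the fold limit, so this count has nothing to be set against. Leaving out any other single library gave 0 called members.

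**Figure D2:**
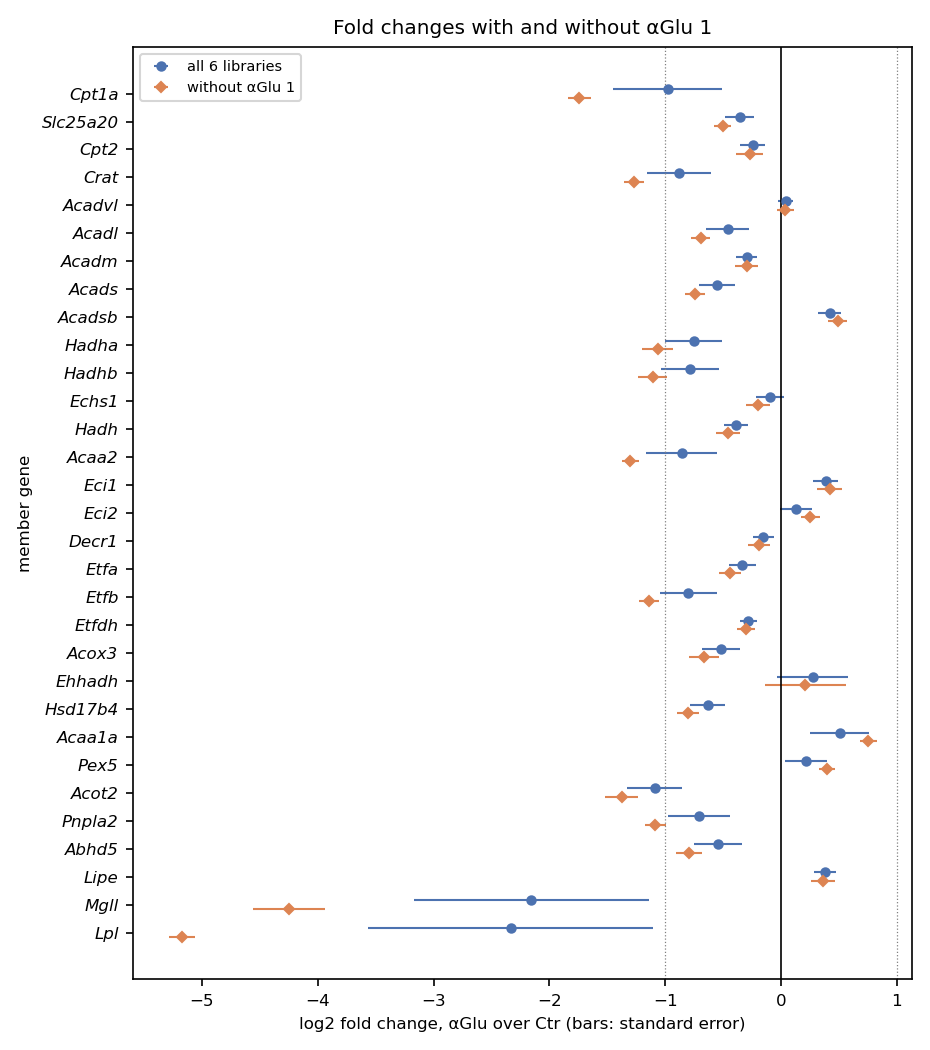
Log2 fold change of αGlu over Ctr with its standard error (bars) for each member, fitted to all 6 libraries (circles) or without αGlu 1 (diamonds), with dotted lines at the fold limits of -1 and 1. Lpl and Mgll moved from -2.33 and -2.15 to -5.17 and -4.25 and their standard errors shrank, while Acadvl stayed near 0 in both fits.

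Lipolysis held the most abundant member and the largest differences. Lpl, the lipoprotein lipase that splits triglycerides of circulating lipoproteins, lies on GRCm38 chromosome 8 from 68880491 to 68907448. Its level was 3748, 3671 and 3563 CPM in Ctr 1, 2 and 3 and 1977, 102 and 101 CPM in αGlu 1, 2 and 3. The groups did not overlap, αGlu 1 stood between them, and Ctr exceeded αGlu 1 by 1.85-fold and αGlu 2 and 3 by 35.9-fold and 36.1-fold. The log2 fold change was -2.33 ± 1.23 (SE, edgeR adjusted p 0.275), and it fell to -5.17 ± 0.11 without αGlu 1 (edgeR adjusted p 5.15e-06). By length-scaled level, Lpl had 1054 ± 43.0 TPM (transcripts scaled by length and depth) in Ctr (SD, n = 3), which was 38.2% to 39.7% of the summed TPM of the members. In αGlu 1 its share was 28.5%, and in αGlu 2 and 3 it was 2.72% and 2.74%.

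Mgll, monoacylglycerol lipase, which completes the breakdown of triglycerides to glycerol, was 204, 131 and 113 CPM in Ctr and 85.6, 8.47 and 7.26 CPM in αGlu. Among the Ctr libraries its SD was 32.5% of its mean, the highest share of any member but Ehhadh (35.9%), yet every αGlu library lay below them. The log2 fold change was -2.15 ± 1.02 (edgeR adjusted p 0.240) and -4.25 ± 0.31 without αGlu 1 (edgeR adjusted p 0.000197). The lower levels rested on 269 and 198 reads in αGlu 2 and 3 against 4498 reads in Ctr 1.

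Pnpla2, the adipose triglyceride lipase that starts the breakdown of lipid droplet triglycerides, was 140, 158 and 153 CPM in Ctr and 134, 72.5 and 69.9 CPM in αGlu. Its fold change was -0.71 ± 0.27 on the log2 scale (edgeR adjusted p 0.187), and it fell to -1.08 without αGlu 1 (edgeR adjusted p 0.000305). Abhd5, the co-activator of Pnpla2, was 68.5, 84.9 and 76.5 CPM in Ctr and 69.5, 46.9 and 41.7 CPM in αGlu. For both genes αGlu 1 was close to Ctr, and for Abhd5 it lay within the Ctr range. The ratio of Pnpla2 to Abhd5 in TPM (mean ± SD, n = 3) was 3.89 ± 0.19 in Ctr and 3.39 ± 0.39 in αGlu.

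Lipe, the hormone-sensitive lipase that acts mainly on diacylglycerols, went the other way from the rest of its group. It was 27.3, 33.6 and 32.4 CPM in Ctr and 40.9, 39.3 and 41.2 CPM in αGlu. Here αGlu 1 resembled the other αGlu libraries, and the groups did not overlap. The log2 fold change was 0.38 ± 0.10 (edgeR adjusted p 0.156), and DESeq2 gave an adjusted p of 0.0413 with a change below the fold limit. Lipe was not alone in this among the members. Lower members such as Hsd17b4, Crat and Etfb had DESeq2 adjusted p-values of 0.0119, 0.0433 and 0.0469, also below the fold limit. Acadsb, which was higher, had a DESeq2 adjusted p of 0.0222.

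**Figure D3:**
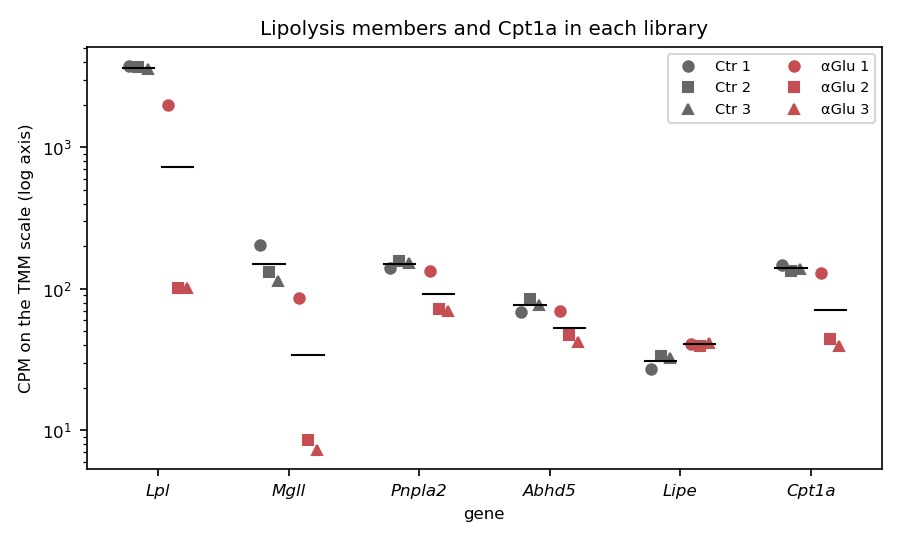
CPM on the TMM scale (log axis) of the 5 lipolysis members and Cpt1a in each library, Ctr in grey and αGlu in red, with the group means as lines and a separate symbol for each replicate number. Lpl in αGlu 2 and 3 (102 and 101 CPM) sits far below αGlu 1 (1977 CPM) and Ctr, and only Lipe has its αGlu points above those of Ctr.

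The carnitine shuttle showed an uneven pattern among its 4 genes, all of which were lower in αGlu with no overlap between groups in CPM. In deposited TPM the groups overlapped for Cpt1a and Cpt2. Cpt1a, the outer-membrane carnitine palmitoyltransferase that sets the pace of mitochondrial fatty acid entry, was 148, 133 and 137 CPM in Ctr and 129, 44.1 and 39.5 CPM in αGlu. In αGlu 1 it was just under the lowest Ctr library, whereas αGlu 2 and 3 were 3.16-fold and 3.53-fold below the Ctr mean. The log2 fold change was -0.98 ± 0.47 (edgeR adjusted p 0.247), and without αGlu 1 it was -1.74 ± 0.10 (edgeR adjusted p 7.01e-05). Cpt2, its inner-membrane counterpart, was 18.9, 15.5 and 18.3 CPM in Ctr and 15.3, 14.1 and 15.1 CPM in αGlu, with an edgeR adjusted p of 0.111 even without αGlu 1. The TPM ratio of Cpt1a to Cpt2 was 2.496 ± 0.17 in Ctr and 2.64, 0.979 and 0.818 in αGlu 1, 2 and 3.

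Crat, carnitine acetyltransferase, which buffers short acyl groups, was 133, 130 and 119 CPM in Ctr and 102, 52.1 and 53.8 CPM in αGlu. Its log2 fold change was -0.88 ± 0.28 (edgeR adjusted p 0.162), with a fall to -1.27 ± 0.09 without αGlu 1 (edgeR adjusted p 0.000160). Slc25a20, the carnitine-acylcarnitine carrier of the inner membrane, was 30.3, 31.9 and 32.7 CPM in Ctr and 29.4, 22.04 and 22.8 CPM in αGlu. Both showed the graded order of Ctr, αGlu 1, then αGlu 2 and 3, but Slc25a20 passed no fold limit, with a log2 fold change of -0.50 ± 0.07 without αGlu 1.

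Acyl-CoA dehydrogenases catalyse the opening step of each cycle and differ in the chain length they accept. Acadl, for long chains, was 102, 97.3 and 100 CPM in Ctr and 94.0, 65.1 and 58.9 CPM in αGlu. Acads, for short chains, was 37.9, 35.4 and 33.5 CPM in Ctr and 30.2, 22.2 and 20.6 CPM in αGlu. Neither gene overlapped between groups in CPM, but Acadl did in deposited TPM. The log2 fold changes were -0.46 ± 0.18 for Acadl and -0.55 ± 0.16 for Acads (edgeR adjusted p 0.195 and 0.159). Acadm, for medium chains, was 73.2, 62.1 and 64.5 CPM in Ctr and 54.1, 51.7 and 57.1 CPM in αGlu. It had no overlap between groups in CPM but did overlap in deposited TPM. From its Ctr mean on the log2 scale, αGlu 1, 2 and 3 lay at -0.30, -0.36 and -0.22, so that αGlu 1 was not the nearest to Ctr. Its log2 fold change was -0.29 ± 0.09 with all libraries and -0.30 ± 0.10 without αGlu 1.

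Acadsb, which handles short branched chains from isoleucine, was 40.2, 37.7 and 37.1 CPM in Ctr and 45.9, 51.1 and 56.9 CPM in αGlu. It was the only dehydrogenase of the 5 with all αGlu libraries above Ctr in CPM, at a log2 fold change of 0.42 ± 0.10 (edgeR adjusted p 0.156). Acadvl, for very long chains, was between 56.6 and 59.9 CPM in Ctr and between 58.0 and 62.3 CPM in αGlu. Its log2 fold change of 0.04 ± 0.07 (edgeR adjusted p 0.710) was the smallest in size among the members. In deposited TPM, however, Acadvl was 64.9, 66.4 and 65.3 in Ctr and 69.1, 74.3 and 70.9 in αGlu, without overlap.

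In the β-oxidation cycle, Hadha and Hadhb encode the α and β subunits of the mitochondrial trifunctional protein, which carries out the last 3 steps for long chains. Hadha was 190, 155 and 147 CPM in Ctr and 135, 75.1 and 82.0 CPM in αGlu. Hadhb was 124, 98.0 and 105 CPM in Ctr and 88.3, 48.1 and 53.4 CPM in αGlu. The genes varied together from library to library, also within Ctr, where replicate 1 was the highest for both. Log2 fold changes were -0.75 ± 0.25 and -0.79 ± 0.25 (edgeR adjusted p 0.167 and 0.162). Without αGlu 1 they fell to -1.07 ± 0.13 and -1.11 ± 0.12 (edgeR adjusted p 0.00153 and 0.000989). The ratio of Hadha to Hadhb in TPM (mean ± SD, n = 3) was 1.14 ± 0.07 in Ctr and 1.16 ± 0.01 in αGlu, so that the groups differed by less than the spread among Ctr libraries.

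Hadha and Hadhb are neighbours on chromosome 5, transcribed away from each other. On GRCm38, in GENCODE release M21, Hadha runs from 30118304 to 30155162 on the minus strand and Hadhb from 30155248 to 30184593 on the plus strand. The 85 bases between their annotated starts, chr5:30155163-30155247 on the plus strand, are shown because both genes start from its ends, with GC boxes (GGGCGG on either strand) in capitals.
Hadha-Hadhb: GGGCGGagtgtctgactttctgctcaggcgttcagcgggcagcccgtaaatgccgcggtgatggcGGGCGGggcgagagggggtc
This stretch holds 2 GC boxes, which is a match of letters and not a measured site. No binding or start site data were used here.

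Acaa2, the mitochondrial thiolase of the last step, was 45.4, 45.1 and 47.9 CPM in Ctr and 39.2, 19.2 and 18.3 CPM in αGlu, with a log2 fold change of -0.86 ± 0.30 (edgeR adjusted p 0.177) and -1.30 ± 0.07 without αGlu 1 (edgeR adjusted p 7.54e-05). Hadh, the dehydrogenase for medium and short hydroxyacyl chains, was 37.3, 31.3 and 36.7 CPM in Ctr and 29.1, 26.6 and 24.8 CPM in αGlu. Acaa2 was lowest in αGlu 2 and 3 in the manner of Hadha and Hadhb, while Hadh lay at -0.27, -0.39 and -0.50 from its Ctr mean on the log2 scale in αGlu 1, 2 and 3. For Hadh, the fitted log2 fold change came to -0.39 ± 0.10 (edgeR adjusted p 0.157). Echs1, the short-chain enoyl-CoA hydratase, was 69.8 to 84.3 CPM in Ctr and 63.7 to 81.4 CPM in αGlu, with overlapping groups.

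The auxiliary enzymes reposition or reduce double bonds so that unsaturated chains can enter the cycle, and they were mixed in direction. Eci1, a mitochondrial enoyl-CoA isomerase, was 10.04, 9.61 and 9.93 CPM in Ctr and 12.2, 14.3 and 12.2 CPM in αGlu. All αGlu values exceeded Ctr, at a log2 fold change of 0.39 ± 0.11 (edgeR adjusted p 0.157). Eci2 ranged from 23.99 to 26.8 CPM in Ctr and from 22.3 to 30.7 CPM in αGlu, and Decr1, the dienoyl-CoA reductase, from 22.4 to 25.7 and from 20.03 to 22.5 CPM. For both of these genes the groups overlapped, at log2 fold changes of 0.13 for Eci2 and -0.15 for Decr1.

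Electrons of the dehydrogenases pass to the flavoprotein made of Etfa and Etfb and from it, through Etfdh, to ubiquinone. Etfb was 50.3, 44.3 and 48.3 CPM in Ctr and 38.9, 21.97 and 21.4 CPM in αGlu. Etfa was 76.7, 63.8 and 71.9 CPM in Ctr and 63.9, 52.5 and 52.3 CPM in αGlu. Both subunits were lowest in αGlu 2 and 3, but Etfb more so. Log2 fold changes were -0.80 ± 0.25 for Etfb and -0.33 ± 0.12 for Etfa (edgeR adjusted p 0.161 and 0.174), and -1.14 ± 0.08 and -0.44 ± 0.10 without αGlu 1. The TPM ratio of Etfa to Etfb was 0.942 ± 0.03 in Ctr and 1.04, 1.52 and 1.55 in αGlu 1, 2 and 3, and thus did not overlap between groups, in contrast to that of Hadha and Hadhb. The difference between the 2 ratios was not tested. Etfdh was 50.7, 44.9 and 46.5 CPM in Ctr and 39.6, 38.1 and 39.1 CPM in αGlu, with a log2 fold change of -0.28 ± 0.07 (edgeR adjusted p 0.156) that was alike in all 3 αGlu libraries.

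**Figure D4:**
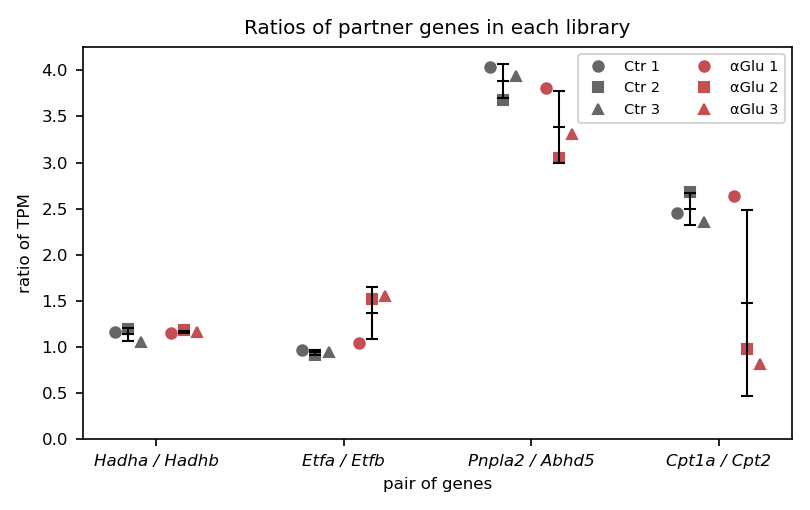
Ratio of TPM for 4 pairs of partner genes in each library (points, Ctr in grey and αGlu in red) with the group mean and SD (bars, n = 3). The Hadha to Hadhb ratio stayed between 1.06 and 1.20 in all libraries, whereas in αGlu 2 and 3 the Etfa to Etfb ratio was 1.52 and 1.55 and the Cpt1a to Cpt2 ratio was 0.979 and 0.818.

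Peroxisomal members were divided. Hsd17b4, the bifunctional hydratase and dehydrogenase for branched and very long chains, was 176, 156 and 164 CPM in Ctr and 130, 90.1 and 100 CPM in αGlu. Acox3, an acyl-CoA oxidase for branched chains, was 333, 282 and 256 CPM in Ctr and 241, 188 and 179 CPM in αGlu. Neither overlapped between groups, and their log2 fold changes were -0.63 ± 0.15 and -0.52 ± 0.16 (edgeR adjusted p 0.156 and 0.162).

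Acaa1a, the peroxisomal thiolase, was 76.9, 78.2 and 73.1 CPM in Ctr and 66.9, 128 and 129 CPM in αGlu. It lay below the Ctr range in αGlu 1 and above it in αGlu 2 and 3, so that the αGlu libraries stood on both sides of Ctr. Its log2 fold change was 0.51 ± 0.26 (edgeR adjusted p 0.260), and 0.75 ± 0.07 without αGlu 1 (edgeR adjusted p 0.000572). Pex5, the receptor that brings most enzymes into peroxisomes, had the same order of libraries, at 27.4 to 28.4 CPM in Ctr and 23.5, 36.8 and 36.9 CPM in αGlu. Ehhadh, the L-bifunctional enzyme, was close to the limit of counting, with 1.07 to 1.96 CPM in Ctr and 1.504 to 1.84 CPM in αGlu. Acaa1a has a near-identical copy, Acaa1b, to which 0 to 5 reads were assigned per library.

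Acot2, a mitochondrial thioesterase that releases fatty acids from acyl-CoA, was 9.13, 8.53 and 9.23 CPM in Ctr and 5.79, 3.68 and 3.23 CPM in αGlu. After Lpl and Mgll it was the member whose level in αGlu 1 was furthest below the Ctr mean, by 1.55-fold, and it had the smallest adjusted p among the members, at a log2 fold change of -1.09 ± 0.24 (edgeR adjusted p 0.154). DESeq2 gave an adjusted p of 0.00263 and the fit without αGlu 1 an edgeR adjusted p of 0.000718. Acot1, its near-identical neighbour, had 2 to 26 reads per library, and how reads that fit both were assigned was not given in the sources used here.

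By length-scaled level in Ctr, Lpl was followed by Acadl (150 ± 6.18 TPM), Pnpla2 (150 ± 6.70 TPM), Hsd17b4 (147 ± 11.5 TPM) and Etfb (123 ± 9.86 TPM). Acadl, Pnpla2 and Hsd17b4 differed by less than the spread between libraries. At the low end were Eci1 (13.98 ± 0.53 TPM), Eci2 (13.7 ± 0.78 TPM), Acot2 (12.3 ± 0.65 TPM) and Ehhadh (1.40 ± 0.49 TPM). Among the Ctr libraries the SD of a member was 6.25% of its mean CPM as a median over the members, with a range from 1.88% to 35.9%.

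Summed over all members, the level was 2883, 2626 and 2619 TPM in Ctr and 2055, 1146 and 1162 TPM in αGlu. Without Lpl the sums were 1782, 1583 and 1602 TPM in Ctr and 1470, 1115 and 1130 TPM in αGlu, so the groups stayed apart when the largest contributor was set aside. Lipolysis genes together made up 1348 ± 64.7 TPM in Ctr and 833, 160 and 159 TPM in αGlu 1, 2 and 3. Carnitine shuttle genes summed to 168 ± 9.64 TPM in Ctr and 150, 82.9 and 86.0 TPM in αGlu. The auxiliary enzymes were slightly higher, at 46.3 ± 0.34 TPM in Ctr and 48.2, 57.0 and 54.0 TPM in αGlu, and the peroxisomal sum was 297 ± 24.02 and 263 ± 12.9 TPM (SD, n = 3).

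**Figure D5:**
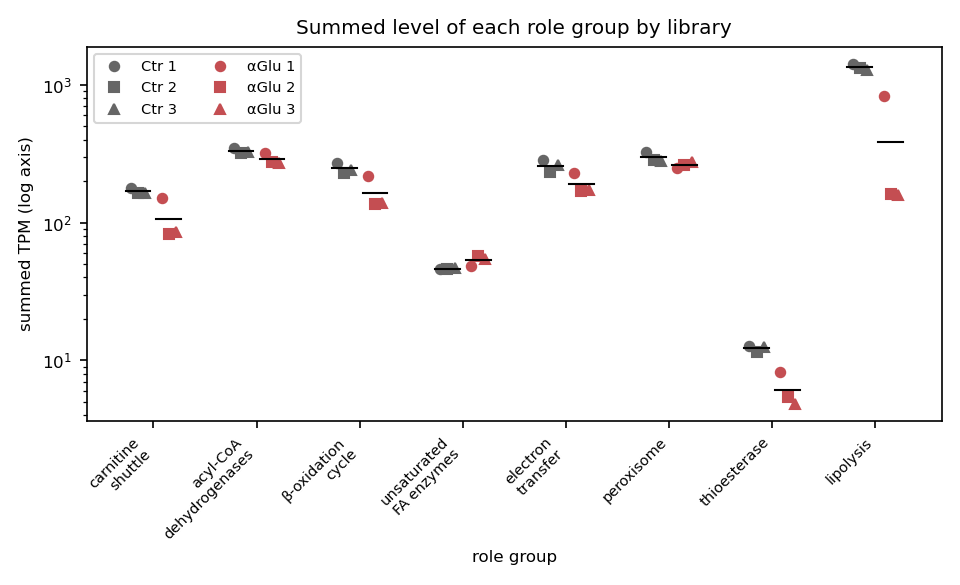
Summed deposited TPM (log axis) of the genes of each role group in each library, Ctr in grey and αGlu in red, with group means as lines. Lipolysis was at 1289 TPM or more in every Ctr library and at 160 and 159 TPM in αGlu 2 and 3, while the points of the peroxisomal and auxiliary groups lie close together.

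Promoter sequences were described for the members as a list, those higher in αGlu included. RefSeq windows on GRCm38.p6, from 250 bases before to 50 bases after each start, were found for 26 of the 31 members. Those without an entry were Acaa2, Crat, Decr1, Hsd17b4 and Lpl, all with a negative log2 fold change. GC boxes (GGGCGG on either strand) were found for 22 of 26 members (84.6%), against 68.2% of 9395 tested genes with a window and 35.7% of all 32851 windows. CCAAT boxes (CCAAT on either strand) were found for 10 of 26 members, or 38.5%, against 43.3% of tested genes and 37.4% of all windows. The half-site of nuclear receptors (AGGTCA on either strand) was found for 5 members, or 19.2%, against 14.9% of tested genes and 16.3% of all windows. A direct repeat of it with 1 base between (AGGTCANAGGTCA on either strand, each match also holding 2 half-sites), the letters bound by PPAR receptors, was found in 0 member windows and 13 windows in all, or 0.0396%. The TATA box (TATAAA) was in 0 member windows, against 8.65% of tested genes and 13.6% of all windows. The E-box (CACGTG) was in those of Lipe and Mgll, or 7.69% of members, against 12.1% of tested genes and 7.15% of all windows. Shares of members and of tested genes count a gene if any of its windows matched. Shares of all windows count single windows, also of genes not tested, so they are not alike in unit. These shares are descriptions of the letters in the windows only.

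The windows of Cpt1a and Mgll are printed as those of the members with the lowest fold changes without αGlu 1 that had an entry, for the 250 bases before the RefSeq start on the plus strand (for Mgll, the upstream of its 2 starts). Capitals mark GC boxes, CCAAT boxes, half-sites and E-boxes on either strand. The Cpt1a window is chr19:3323051-3323300 and the Mgll window is chr6:88724162-88724411.
Cpt1a: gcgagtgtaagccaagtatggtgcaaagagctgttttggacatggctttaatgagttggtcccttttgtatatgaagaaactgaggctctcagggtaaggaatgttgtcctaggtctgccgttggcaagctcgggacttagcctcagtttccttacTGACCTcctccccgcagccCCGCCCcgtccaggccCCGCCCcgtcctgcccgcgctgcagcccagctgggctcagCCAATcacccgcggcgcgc
Mgll: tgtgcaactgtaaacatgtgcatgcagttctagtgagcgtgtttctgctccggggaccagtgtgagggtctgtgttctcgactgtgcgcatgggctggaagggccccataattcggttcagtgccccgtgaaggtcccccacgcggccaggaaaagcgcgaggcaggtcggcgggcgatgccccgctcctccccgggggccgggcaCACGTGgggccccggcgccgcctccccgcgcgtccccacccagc
Cpt1a held 2 GC boxes, 1 CCAAT box and 1 half-site in this stretch, and Mgll held 1 E-box. An antisense gene annotated over the Mgll window, Gm26588, had 0 to 2 reads per library.

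The neighbouring steps of the pathway were read from 7 further lists. Of their 125 genes, 96 were tested and 0 were called by edgeR, while 10 were higher and 18 lower in αGlu with no overlap, beside 14.2% and 15.9% of all genes tested. Their median log2 fold change was -0.04. Without αGlu 1, the fit called 4 of the 96 higher and 14 lower, beside 8.05% and 10.5% of all genes in that fit. Listed genes tested only in that fit are outside these counts. Of them it called Cpt1c higher and Acot1 and Acot4 lower, all near the limit of counting.

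Fatty acid uptake and activation (18 of 19 genes tested, 1 higher and 4 lower with no overlap) held genes of opposite direction. Dbi, the acyl-CoA binding protein, was 97.4, 85.6 and 84.2 CPM in Ctr and 55.7, 45.1 and 44.5 CPM in αGlu, at a log2 fold change of -0.88 ± 0.12 (edgeR adjusted p 0.149). Acsl1, which activates long chains to acyl-CoA, was 36.6, 33.5 and 30.8 CPM in Ctr and 35.0, 641 and 443 CPM in αGlu. It was thus at the Ctr level in αGlu 1 and far above it in the other two, with a log2 fold change of 4.01 without αGlu 1 (edgeR adjusted p 3.48e-05). Among the 9 tested of 15 common PPAR targets outside the members (0 higher and 3 lower with no overlap), Ucp2, a mitochondrial carrier, was 571 to 636 CPM in Ctr and 418, 170 and 183 CPM in αGlu. Acsl1 belongs to this list as well and went against its median of -0.36.

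Other fatty acid oxidation enzymes, largely of branched-chain and propionate breakdown, gave 23 tested genes of 28 with 2 higher and 5 lower without overlap and a median log2 fold change of -0.05. Echdc1, a proofreading decarboxylase, was 25.8 to 26.1 CPM in Ctr and 19.8 to 21.2 CPM in αGlu, and Pccb, a subunit of propionyl-CoA carboxylase, was 21.7 to 35.3 CPM in Ctr and 9.82 to 17.4 CPM in αGlu. Neither passed the test with all libraries (edgeR adjusted p 0.149 and 0.157). The thioesterase list (7 of 11 tested, 1 higher and 1 lower with no overlap, median -0.07) held Acot11 at 20.4 to 25.6 CPM in Ctr and 16.5 to 18.2 CPM in αGlu, and Acot13 at 24.3 to 27.9 and 30.1 to 32.0 CPM.

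Lipolysis regulators and other lipases (13 of 23 tested) were 1 higher and 3 lower with no overlap, with a median log2 fold change of -0.30. Abhd6, another monoacylglycerol lipase, was 0.318, 0.460 and 0.0928 CPM in Ctr and 0.746, 2.30 and 1.72 CPM in αGlu, so that it was higher where Mgll was lower, though at a level near the limit of counting. Plin3, a lipid droplet coat protein, was 169 to 194 CPM in Ctr and 157, 93.4 and 83.1 CPM in αGlu. Peroxisome biogenesis genes (14 of 14 tested) were 0 higher and 1 lower with no overlap, at a median of 0.09, and those with the smallest p were Pex26, at 10.02 to 11.0 CPM in Ctr and 9.23, 19.8 and 21.5 CPM in αGlu, and Pex16, at 14.99 to 17.3 and 15.3 to 25.1 CPM. Their αGlu 1 values were at the Ctr level or below it, the order also seen for Pex5.

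Transcriptional and energy regulators (19 of 22 tested) were 5 higher and 3 lower with no overlap, with a median log2 fold change of 0.11. Sirt3, a mitochondrial deacetylase, was 6.68 to 7.48 CPM in Ctr and 9.86 to 10.7 CPM in αGlu, at a log2 fold change of 0.51 ± 0.10 (edgeR adjusted p 0.149). Ppard, a nuclear receptor for fatty acids, was 19.0 to 20.4 CPM in Ctr and 22.9, 33.7 and 31.3 CPM in αGlu, at 0.56 ± 0.15 (edgeR adjusted p 0.157).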

How the data were processed

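Stranded mRNA libraries of 6 Mφ cultures were sequenced on an Illumina instrument, and read annotation by the authors used the RNA-seq Analysis Portal of QIAGEN. The genome build in the submitters' processing notes is GRCm38, but its annotation release, the aligner and the treatment of multi-mapping reads are not given in the sources used here. The authors deposited whole-number read counts per gene, without normalization, and TPM values, which the authors scaled by transcript length and depth. Other value columns were not used, and the labels gave no batch.

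Counts were tested with edgeR 4.0.16 in R 4.3.3 (filterByExpr with minimum count 10 and minimum total 15, TMM factors, quasi-likelihood test, group as the only term, two-sided, Benjamini-Hochberg over 11933 genes). Calls needed an adjusted p under 0.1 and a log2 fold change, αGlu over Ctr, beyond 1 in either direction. CPM values use TMM-adjusted library sizes, with a prior count of 2 before the log2 step. Standard errors were obtained by dividing fold changes by the square root of F. Levels of different genes were compared in TPM only. The code was tested on simulated data with alike replicates, a setting that does not cover the spread seen among the αGlu libraries.

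The members and lists were chosen with earlier results of these data known, and no list was tested as a set. Named by rule were members whose groups did not overlap, the 3 highest and 3 lowest fold changes, the 5 highest TPM and fixed partners, which gave 25 members, and the 2 genes with the smallest p of each further list. The 6 members outside this rule are given so that every member has its levels. Alternatives were DESeq2 1.42.0, limma-voom (limma 3.58.1), other scaling factors, filters and thresholds, a replicate block, TPM for the overlap of groups, and each library left out. The median without Lpl and Mgll was added after the data were seen.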

Additional observations from a re-analysis of the deposited data

How the results depend on the processing

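The count of called members was 0 with edgeR and 0 with limma-voom, with relative log expression factors, with library size alone, with no low-count filter, with CPM above 1 in 3 libraries, with no fold limit, with an adjusted p under 0.05 and with the replicate block. It was 1 with DESeq2 and from 0 to 10 when 1 library was left out, where 10 belongs to the fit without αGlu 1. Over all genes the count was 0 in the main fit, 1117 with DESeq2, 17 with the replicate block and from 0 to 2290 with 1 library left out, where 2290 again belongs to αGlu 1. DESeq2 estimates the spread in another way, and the cause of its difference was not tested. The median log2 fold change of the members, -0.39, stayed between -0.50 and -0.31 in every alternative and was -0.36 without Lpl and Mgll. Members without overlap numbered 22 in the main setting (3 higher and 19 lower) and 19 with deposited TPM (4 higher and 15 lower). They numbered 22 to 28 with 1 library left out, where 28 belongs to the setting without αGlu 1. A lack of overlap is easier to reach with fewer libraries. The share of all genes was counted only for CPM with all libraries, so the TPM and left-out counts have nothing to be set against. Each of the 25 named members kept its sign in all 13 refits, with 11 of 325 values passing the threshold that they missed with all libraries, 10 of them without αGlu 1 and 1, for Acot2, with DESeq2. The replicate numbers were not taken as pairs, since deviations from the group means correlated over 0.1 for only 1 of the 3 same-numbered pairs (0.0764, 0.0646 and 0.154). Each of these still lay above every differently numbered pair (-0.112 to 0.0459), a hint of pairing from the data and not from the design. With 3 libraries a group and a common dispersion of 0.0690, against 0.0203 without αGlu 1, the spread among αGlu libraries limits the comparison, and low genes such as Ehhadh are also limited by their counts.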

Other observations

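Some genes of lipid handling outside the members, named after their values were seen, were also lowest in αGlu 2 and 3. Cd36, a fatty acid uptake receptor, was 2897, 2460 and 2334 CPM in Ctr and 2413, 453 and 300 CPM in αGlu 1, 2 and 3. Lipa, the lysosomal acid lipase, was 2284, 2427 and 2540 CPM in Ctr and 2228, 281 and 289 CPM in αGlu. Plin2, a lipid droplet coat protein, was 1048, 1358 and 1241 CPM in Ctr and 1249, 196 and 178 CPM in αGlu. In all of these αGlu 1 was at or near the Ctr level, and the edgeR adjusted p with all libraries was 0.334, 0.336 and 0.369. Others went the other way. Fabp5, a fatty acid binding protein, was 1904, 2197 and 2071 CPM in Ctr and 2582, 4403 and 4106 CPM in αGlu (edgeR adjusted p 0.160). Acsl1, Acsl4 and Hilpda were also higher in αGlu 2 and 3 than in Ctr.

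Among the regulators, Pparg, a nuclear receptor of lipid uptake and M2 genes, was 201, 217 and 201 CPM in Ctr and 183, 13.0 and 12.4 CPM in αGlu 1, 2 and 3, and Tfeb, a transcription factor of lysosomal genes, was 94.2, 86.8 and 79.6 CPM in Ctr and 86.7, 21.8 and 21.6 CPM in αGlu. With all libraries their log2 fold changes were -1.58 ± 1.08 and -1.01 ± 0.58 (edgeR adjusted p 0.373 and 0.302). Without αGlu 1 they were -4.03 and -2.01 (edgeR adjusted p 7.38e-06 and 4.64e-05). Angptl4, an inhibitor of lipoprotein lipase, was 6.13, 6.65 and 6.59 CPM in Ctr and 4.30, 0.157 and 0.0734 CPM in αGlu. These genes were picked for their values, so they are descriptions of these libraries.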
